A study of Mus musculus with 16 samples.

Results

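Thymic epithelial cells feed developing T cells with a small set of secreted or membrane-bound cytokines, and 6 of these genes are described here: Il7, Kitl, Csf1, Il15, Flt3l and Tslp. They were chosen by name as stromal growth and survival cytokines and are 6 of 23420 genes in the deposited count table and of 23063 in the RPKM table. All 6 passed the filter on low counts in every comparison. Il7 encodes interleukin 7, which signals through the IL-7 receptor and the common gamma chain and is needed for survival and rearrangement in early thymocytes. Kitl encodes stem cell factor, the ligand of the receptor tyrosine kinase Kit on early thymic progenitors. Flt3l and Csf1 encode the ligands of the related receptors Flt3 and Csf1r, which dendritic cell precursors and macrophages carry. Il15 encodes interleukin 15, usually presented by its own receptor chain to NK, NKT and memory-type T cells. Tslp encodes thymic stromal lymphopoietin, whose receptor pairs Crlf2 with the IL-7 receptor chain.

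The libraries came from thymic epithelium of wild-type (WT) mice and of psmb11-/- mice (KO), which lack the thymoproteasome subunit beta5t made by cortical epithelium. Both genotypes carry the strain label C57BL/6-derived BAC. Epithelial cells were sorted as CD45-, EpCAM+; of these, Ly51+ UEA1- cells were cortical (cTEC) and Ly51- UEA1+ cells medullary (mTEC). The labels further divide mTEC into mTEClo and mTEChi, low and high, and there were 2 libraries per genotype of cTEC and 3 per genotype of each mTEC population. The sample labels and the series description give an age of 6 to 8 weeks, and the latter 11 thymi, while the extraction protocol gives 7 days and 14 mice. The number of animals behind a library is not given, so p-values measure only the spread between these libraries, which may be technical. Bulk RNA cannot tell fewer cells of a type from less RNA per cell.

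Each library held 64753610 to 146707262 reads assigned to genes, so 3 reads correspond to at most 0.0463 CPM (reads scaled to the library total). Psmb11 was measured at 174 and 146 CPM in the WT cTEC libraries and at 2.10 and 0 CPM in the KO ones. It was also lower in every KO library of mTEClo (1.10 to 1.60 against 7.77 to 12.6 CPM) and mTEChi (0.713 to 1.12 against 8.48 to 11.8 CPM). In the edgeR fits of each population alone, Psmb11 was the gene that passed in mTEClo (adjusted p = 5.44e-04) and in mTEChi (adjusted p = 2.43e-07), whereas in cTEC it had an adjusted p of 0.0855. The cTEC libraries varied more between replicates, with a biological coefficient of variation of 0.652 against 0.131 in mTEClo and 0.113 in mTEChi. Aire, the medullary regulator of tissue antigens, was at 1510 CPM in WT mTEChi, 12.6 CPM in WT mTEClo and 12.6 CPM in WT cTEC.

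On mm10, in the authors' table, Il7 spans chr3:7572077-7613427 and Csf1 chr3:107741048-107760469, both on the minus strand. Kitl spans chr10:100015824-100100412 on the plus strand. Il15 lies at chr8:82331624-82402586 and Flt3l at chr7:45131189-45136432, both on the minus strand. The counts are sums over each gene's exons, and the library kit did not mark the strand. In the GENCODE annotation, exons of Il7 overlap the opposite-strand gene Gm16685 and exons of Flt3l are shared with the same-strand gene Gm45713, so reads there cannot be assigned with certainty.

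RefSeq (GRCm38.p6) gave upstream sequence for 3 of the 6 genes, and the 250 bases before the start are shown for Csf1 and Flt3l. They were taken because, among the populations, Csf1 had its own lowest level in mTEChi and Flt3l its own highest. Il7 was also lowest there, and Il15 and Tslp were also highest. The Csf1 sequence covers chr3:107760470-107760719 and the Flt3l sequence chr7:45136433-45136682, both read on the minus strand. Capitals mark matches to the motifs searched.
Csf1: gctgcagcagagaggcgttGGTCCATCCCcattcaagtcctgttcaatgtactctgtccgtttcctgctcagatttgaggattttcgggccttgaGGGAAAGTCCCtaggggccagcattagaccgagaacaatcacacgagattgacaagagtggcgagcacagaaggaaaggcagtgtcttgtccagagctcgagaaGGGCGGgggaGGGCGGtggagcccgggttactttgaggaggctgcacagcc
Flt3l: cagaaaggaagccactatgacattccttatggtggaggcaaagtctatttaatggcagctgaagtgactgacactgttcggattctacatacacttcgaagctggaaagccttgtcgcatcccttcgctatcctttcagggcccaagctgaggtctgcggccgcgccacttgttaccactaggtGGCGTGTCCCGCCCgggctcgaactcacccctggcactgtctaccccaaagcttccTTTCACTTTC
Both strands were searched for 4 motifs. The NF-kB motif, GGGA and CC with any 4 bases between them, stands at 231 to 222 bases before the Csf1 start and, as overlapping matches on the 2 strands, at 155 to 146 and 154 to 145. Csf1 also has GC boxes (GGGCGG) at 51 to 46 and 41 to 36 bases before its start. Flt3l has an NF-kB match at 66 to 57, an overlapping GC box at 58 to 53, and the interferon response element core, GAAA repeated after any 2 bases, at 10 to 1. The TATA letters TATAAA matched neither sequence. Among 32817 RefSeq windows of this length, 17.6% hold the NF-kB motif, 32.7% a GC box, 2.97% the interferon core and 12.4% TATAAA. A match is a run of letters, not evidence of binding.

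By RPKM, which scales reads by gene length and so allows genes to be compared, Il7 was the most abundant of the 6 in cTEC and mTEClo of both genotypes. WT cTEC held 103 ± 4.39 RPKM of Il7 (SD, n = 2), above 98.5% of all genes, then 51.6 ± 3.42 of Csf1 and 25.3 ± 1.92 of Kitl. Il15 at 13.4 ± 0.834 RPKM and Flt3l at 13.1 ± 0.633 did not differ beyond their spread, and Tslp was at 0.424 ± 0.211. WT mTEClo had a similar Il7 level, 98.6 ± 6.69 RPKM (SD, n = 3), and 33.2 ± 2.20 of Csf1, but only 2.15 ± 0.277 of Kitl. In WT mTEChi the order changed: Il15 came first with 33.9 ± 0.445 RPKM, then Flt3l with 28.8 ± 2.47, Il7 with 22.8 ± 1.57 and Csf1 with 15.3 ± 0.654. Kitl at 7.16 ± 0.754 and Tslp at 6.20 ± 1.17 RPKM came last there and did not differ beyond their spread.

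Il7 made up 49.8% ± 0.707 of the summed RPKM of the 6 genes in WT cTEC (SD, n = 2) and 19.9% ± 1.30 in WT mTEChi (n = 3). Il15 and Flt3l made up 6.48% ± 0.219 and 6.35% ± 0.487 in WT cTEC, against 29.7% ± 0.402 and 25.3% ± 2.26 in WT mTEChi. Kitl took 12.2% ± 1.28 of the sum in WT cTEC, 7.41% ± 0.444 in KO cTEC and 1.37% ± 0.122 in KO mTEClo. In WT cTEC there were 4.10 ± 0.485 RPKM of Il7 per RPKM of Kitl, and in KO cTEC 6.32 ± 0.208.

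**Figure D1:**
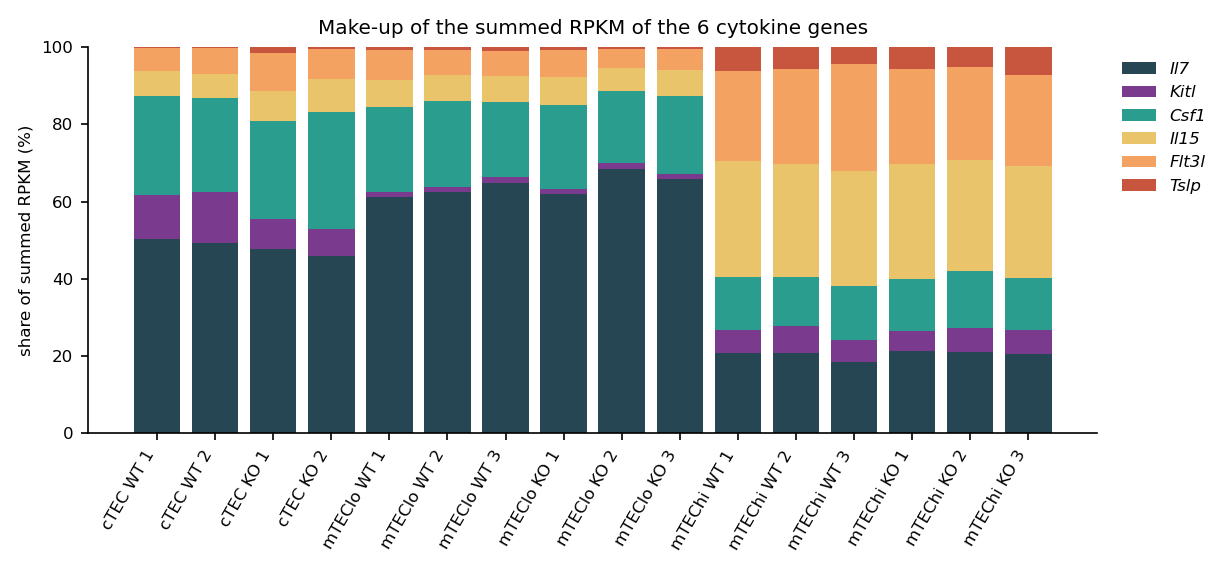
Share of the summed RPKM of the 6 cytokine genes (vertical axis, %) in each of the 16 libraries; each stacked bar is 1 library. Il7 is the widest band in all cTEC and mTEClo libraries, and Il15 and Flt3l are the widest in all mTEChi libraries.

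Across populations the genes fell into patterns that are described here in CPM. Il7 was high in cTEC and mTEClo and low in mTEChi. WT cTEC libraries held 366 and 329 CPM, WT mTEClo libraries 292, 317 and 339 CPM, and WT mTEChi libraries 67.7, 68.8 and 61.0 CPM. KO cTEC libraries held 277 and 305 CPM, KO mTEClo libraries 335, 390 and 363 CPM, and KO mTEChi libraries 70.8, 67.4 and 67.7 CPM. In the order of group means, only the gap between KO cTEC and the mTEChi groups exceeded the sum of the SDs.

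Kitl was highest in cTEC, intermediate in mTEChi and lowest in mTEClo. WT cTEC libraries held 186 and 197 CPM, and KO cTEC libraries 102 and 107 CPM. WT mTEChi libraries held 44.9, 53.2 and 43.3 CPM, and KO ones 39.0, 44.3 and 47.3 CPM. WT mTEClo libraries held 13.6, 15.5 and 17.7 CPM, and KO ones 16.4, 19.4 and 15.8 CPM. No library of one population overlapped with another population, and the gaps from WT to KO cTEC, from KO cTEC to mTEChi and from mTEChi to mTEClo each exceeded the sum of the SDs.

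Csf1 stepped down from cTEC through mTEClo to mTEChi. Its level was 341 and 297 CPM in WT cTEC, 194, 208 and 186 CPM in WT mTEClo, and 82.7, 78.7 and 84.5 CPM in WT mTEChi. In KO libraries it was 273 and 366 CPM in cTEC, 216, 196 and 205 CPM in mTEClo, and 83.9, 85.7 and 82.7 CPM in mTEChi. The 3 populations did not overlap for Csf1, and the WT and KO groups of each population did.

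Il15 and Flt3l both peaked in mTEChi. Il15 was at 50.7, 50.3 and 51.8 CPM in WT mTEChi, 24.6 and 21.2 CPM in WT cTEC, and 16.9, 17.3 and 17.9 CPM in WT mTEClo. The KO libraries held 51.8, 47.8 and 49.3 CPM in mTEChi, 23.8 and 28.4 CPM in cTEC, and 20.5, 17.5 and 18.8 CPM in mTEClo. Every mTEChi library exceeded every other library.

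Flt3l was at 29.8, 31.5 and 35.5 CPM in WT mTEChi, 16.6 and 17.8 CPM in WT cTEC, and 15, 13.0 and 14.2 CPM in WT mTEClo. The KO libraries held 31.8, 30.4 and 30.1 CPM in mTEChi, 21.3 and 23.6 CPM in cTEC, and 15.3, 11.6 and 12.4 CPM in mTEClo. The gaps between mTEChi, KO cTEC, WT cTEC and mTEClo, in that order, each exceeded the sum of the SDs.

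Tslp, on the plus strand at chr18:32815383-32819799, was the least abundant of the 6 by RPKM in cTEC and mTEClo, and lay close to Kitl in mTEChi. Its counts were 47 and 90 reads in the WT cTEC libraries (0.538 and 1.03 CPM) and 359 and 154 reads in the KO ones (4.81 and 2.37 CPM). WT mTEClo libraries held 1.8, 2.14 and 2.62 CPM and KO ones 2.36, 1.98 and 1.30 CPM. WT mTEChi libraries held 11.5, 10.6 and 7.97 CPM and KO ones 10.4, 8.95 and 13.6 CPM, so every mTEChi library exceeded all others. KO cTEC, WT mTEClo and KO mTEClo followed in that order and did not differ from one to the next beyond their spread, and WT cTEC lay below KO mTEClo by more than the sum of the SDs.

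**Figure D2:**
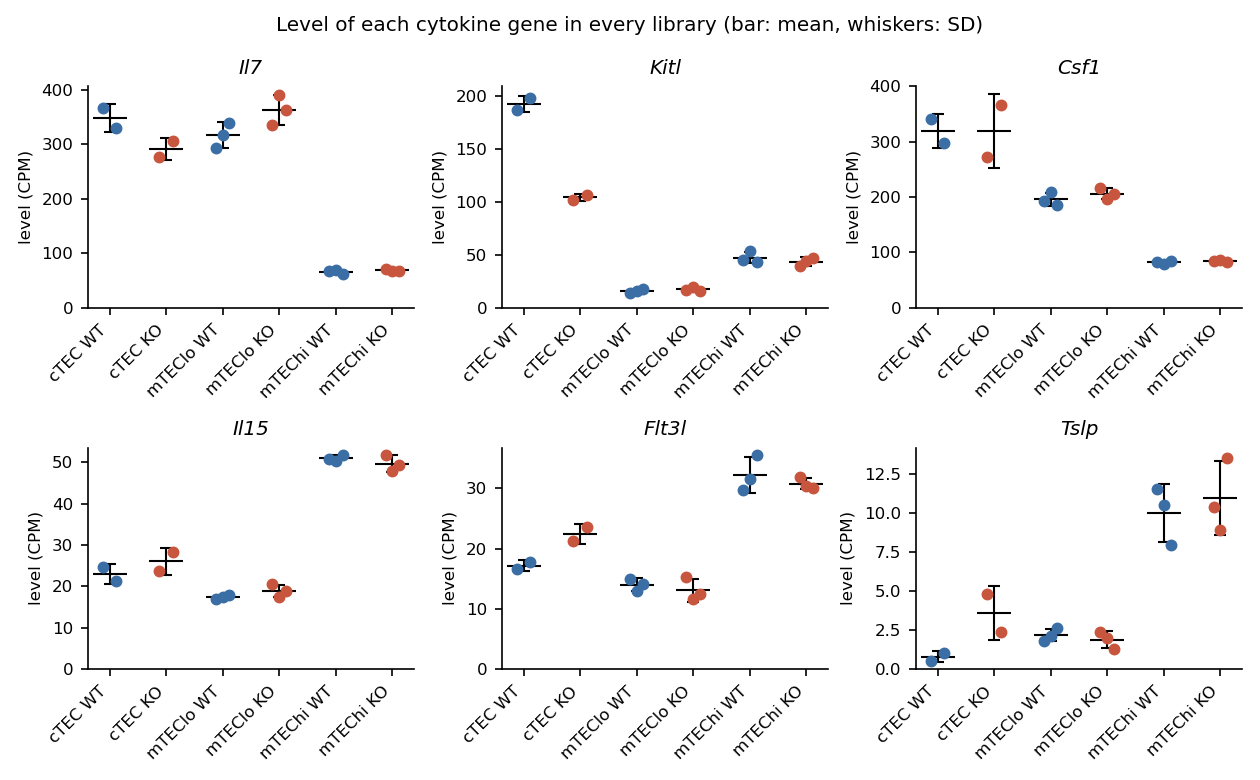
Level of each gene in CPM (vertical axis, starting at 0) in every library, by group; points are libraries, horizontal bars are means and whiskers are SDs (n = 2 for cTEC groups, 3 for mTEC groups). Kitl separates WT cTEC (186 and 197 CPM) from KO cTEC (102 and 107 CPM), and Il15, Flt3l and Tslp are highest in the mTEChi libraries.

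WT mTEChi was compared with WT mTEClo to ask which of the cytokines differ between the medullary populations. Il15 was 2.88-fold higher in mTEChi (log2 fold change 1.53, SE 0.07, edgeR adjusted p = 1.81e-11). Kitl was 2.97-fold higher (log2 1.57, SE 0.12), Flt3l 2.26-fold higher (1.18, SE 0.10) and Tslp 4.50-fold higher (2.17, SE 0.24). Il7 was 4.89-fold lower (log2 -2.29, SE 0.08, edgeR adjusted p = 7.14e-13) and Csf1 2.43-fold lower (-1.28, SE 0.06, edgeR adjusted p = 4.60e-11). All 6 genes thus passed, 4 higher and 2 lower, where 79.6% of all genes passed (42.8% higher and 36.8% lower), so the count of members is close to the background. In KO mice the same 4 genes were higher and the same 2 lower in mTEChi, with log2 fold changes of -2.42 for Il7, 1.32 for Kitl, 1.37 for Il15, 1.21 for Flt3l, 2.53 for Tslp and -1.31 for Csf1 (80.4% of genes passed, 43.2% higher and 37.2% lower).

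Set against the other medullary population, WT cTEC exceeded WT mTEChi in Il7, Kitl and Csf1 and lay below it in Il15, Flt3l and Tslp. Il7 was 5.18-fold higher in cTEC (log2 2.37, SE 0.08, edgeR adjusted p = 8.59e-08), Kitl 3.99-fold (2.0, SE 0.11) and Csf1 3.82-fold (1.93, SE 0.11). Il15 was 2.27-fold lower in cTEC (log2 -1.18, SE 0.10), Flt3l 1.91-fold lower (-0.93, SE 0.11) and Tslp 13.0-fold lower (-3.70, SE 0.48, edgeR adjusted p = 1.95e-04). Over all genes, 64.6% passed, 28% higher and 36.5% lower. In KO mice all 6 passed in the same directions, where 59.6% of genes passed (26.1% higher and 33.4% lower), with Kitl 2.34-fold higher, Flt3l 1.40-fold lower and Tslp 3.12-fold lower in cTEC. The Flt3l and Tslp calls in KO mice were lost with limma voom and a weight per library (adjusted p = 0.182 and 0.254).

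WT cTEC and WT mTEClo differed most in Kitl, which was 12.3-fold higher in cTEC (log2 3.62, SE 0.13, 95% confidence interval 3.33 to 3.91, edgeR adjusted p = 5.76e-07). Csf1 was 1.63-fold higher in cTEC (log2 0.70, SE 0.12, edgeR adjusted p = 0.00168). Il15 passed narrowly (log2 0.40, SE 0.13, edgeR adjusted p = 0.0488). That Il15 call was lost without any 1 of the 2 WT cTEC or 6 mTEClo libraries, with adjusted p from 0.0610 to 0.286, and with RLE scaling (0.0592), no low-count filter (0.0765) or a replicate block (0.116). Il7 differed by a log2 of 0.13 (95% interval -0.09 to 0.35) and Flt3l by 0.29 (-0.07 to 0.65), neither of which passed. Tslp had a log2 fold change of -1.47 (SE 0.56, edgeR adjusted p = 0.0781), and passed without cTEC KO 1 (adjusted p = 0.0113) or cTEC KO 2 (0.0104), with DESeq2 (0.0183) and in the fit of all 16 libraries (0.0137). Thus 3 of 6 genes passed, all higher in cTEC, against 13.1% of all genes higher and 27.5% in either direction.

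In KO mice, cTEC exceeded mTEClo 6.10-fold in Kitl (log2 2.61, SE 0.13, edgeR adjusted p = 1.07e-05), in Csf1 (log2 0.65, edgeR adjusted p = 0.00523), Flt3l (0.79, 0.00835) and Il15 (0.47, 0.0333). These 4 of 6 genes compare with 10.1% of all genes called higher and 19.6% in either direction. With limma voom and a weight per library, only Kitl of these stayed past the threshold (adjusted p = 0.180 for Flt3l, 0.0969 for Csf1 and 0.451 for Il15). The Il15 call was also lost without cTEC KO 2 or any 1 of the 6 mTEClo libraries (adjusted p up to 0.103), with no low-count filter (0.0512) and with a replicate block (0.0934). Il7 (log2 -0.31, edgeR adjusted p = 0.0561) and Tslp (0.95, 0.229) did not pass, and both passed without cTEC KO 2 (adjusted p = 0.0484 and 0.0471). Il7 also passed with DESeq2 (0.0117) and in the fit of all 16 libraries (0.0159).

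**Figure D3:**
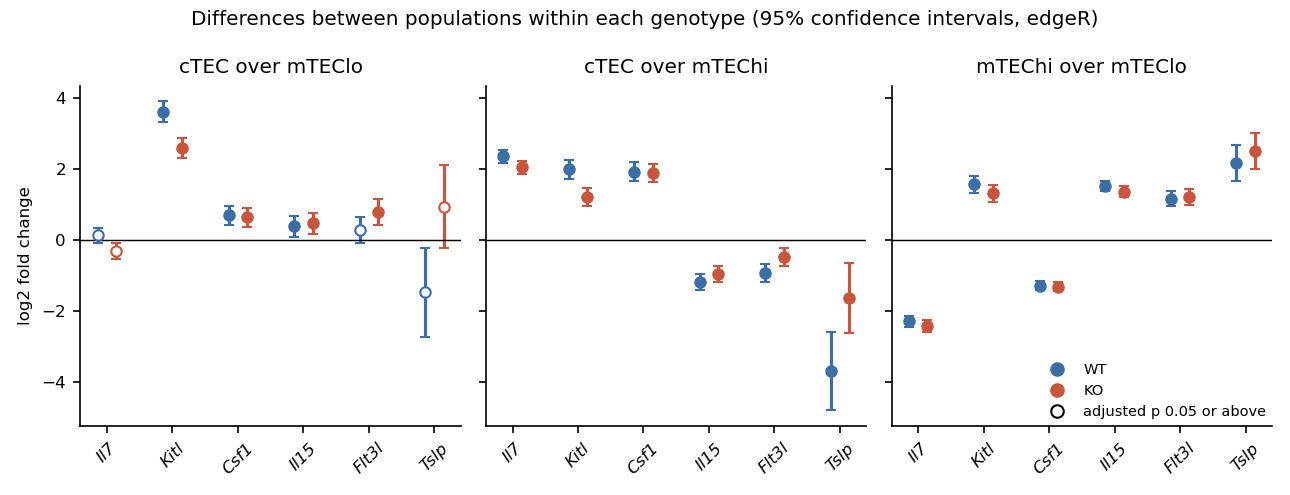
Log2 fold change (vertical axis) of each gene between populations within WT and KO mice, with 95% confidence intervals; open points did not pass the adjusted threshold. Kitl is above 0 in all panels, and Il7 and Csf1 take the opposite sign to Il15, Flt3l and Tslp wherever mTEChi is compared.

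Loss of Psmb11 was asked about within each population. In cTEC, Kitl was at 104 ± 3.52 CPM in KO and 192 ± 7.78 CPM in WT (SD, n = 2 each). The log2 fold change was -0.88 (SE 0.13, 95% interval -1.19 to -0.57). The 2 genotypes did not overlap, but the edgeR adjusted p of 0.0807 missed the threshold, as it did for all 16423 genes tested. None of the 6 genes was called, nor any gene in all (0%), although 2104 genes had an unadjusted p under 0.05 and DESeq2 called 821. For Kitl, 5 of 6 other settings passed, with adjusted p from 4.23e-07 for DESeq2 to 0.0810 for another scaling, and its log2 fold change stayed between -0.88 and -0.86. It also passed without cTEC KO 1 (adjusted p = 0.0102), cTEC KO 2 (0.00826) or cTEC WT 1 (0.0353), and not without cTEC WT 2 (0.121).

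The other growth factor genes did not pass in cTEC. Csf1 averaged 319 CPM in both genotypes (log2 0.01, 95% interval -0.39 to 0.40). Flt3l was at 22.4 ± 1.65 CPM in KO and 17.2 ± 0.843 CPM in WT without overlap (log2 0.39, 95% interval -0.20 to 0.98, edgeR adjusted p = 0.575). Among the interleukins, Il7 had a log2 fold change of -0.25 (95% interval -0.55 to 0.05, edgeR adjusted p = 0.481) and Il15 one of 0.19 (-0.37 to 0.76). Tslp was at 3.59 ± 1.72 CPM in KO and 0.786 ± 0.350 CPM in WT, also without overlap (log2 2.20, SE 1.18, edgeR adjusted p = 0.507), and passed only when all 16 libraries shared 1 fit (adjusted p = 0.00414). That fit applies the spread of the less variable mTEC libraries to cTEC as well, so its cTEC calls are not reliable. Altogether 4 of 6 genes had genotypes that did not overlap, against 45.6% of all genes.

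In mTEClo none of the 6 genes was called, where 1 of 17073 genes passed (0.00586%), 2141 genes had an unadjusted p under 0.05 and DESeq2 called 318. The largest difference was that of Tslp, with a log2 fold change of -0.23 (95% interval -0.80 to 0.33), followed by Il7 with 0.19 (0.00 to 0.37, edgeR adjusted p = 0.397). In mTEChi none was called either, where 0.0051% of 19614 genes passed, 822 genes had an unadjusted p under 0.05 and DESeq2 called 7. There Kitl had a log2 fold change of -0.13 (95% interval -0.32 to 0.07), and the other 5 genes lay between -0.08 and 0.12. No gene had genotypes apart in either population, against 19.2% of genes in mTEClo and 8.99% in mTEChi.

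**Figure D4:**
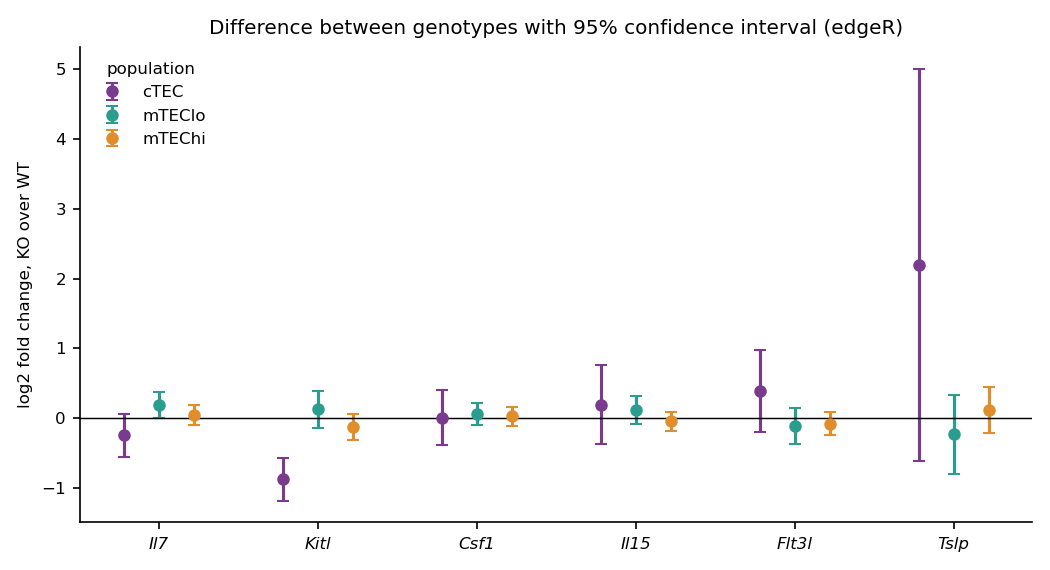
Log2 fold change of KO over WT (vertical axis) for each gene in cTEC, mTEClo and mTEChi, with 95% confidence intervals. Kitl in cTEC is at -0.88 with an interval of -1.19 to -0.57, and the Tslp interval in cTEC is the widest.

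The difference of the KO effects between populations was tested itself. The fits with cTEC shared 1 spread with mTEC, a biological coefficient of variation of 0.379 with mTEClo and 0.348 with mTEChi. Both lie below the 0.652 of cTEC alone, so these tests may understate the spread in cTEC. For Kitl the effect in cTEC lay below that in mTEClo by a log2 of -1.01 (SE 0.18, edgeR adjusted p = 0.0138) and below that in mTEChi by -0.77 (SE 0.16, edgeR adjusted p = 0.0308). These differences were called for 1 of 6 genes, against 1.27% of all genes lower and 4.68% in either direction in the first, and 1.79% and 5.35% in the second. The first was lost without cTEC WT 2 (adjusted p = 0.0573) and with voom (0.0506). The second was lost without cTEC WT 1 (0.050), cTEC WT 2 (0.0620), mTEChi WT 1 (0.0882), mTEChi WT 3 (0.0785), mTEChi KO 2 (0.0877) or mTEChi KO 3 (0.0775), with voom (0.265) and with the replicate number as a block (0.0668). Tslp differed by a log2 of 2.42 (SE 0.76, edgeR adjusted p = 0.0996) and 2.06 (SE 0.59, 0.0867) and did not pass. It did pass without cTEC KO 1 (adjusted p = 0.0370 and 0.0382) or cTEC KO 2 (0.00779 and 0.00367), with DESeq2 (0.0130 and 0.0058) and in the fit of all 16 libraries (0.0136 and 0.0328). The Il7 effect in cTEC minus that in mTEClo was -0.44 (edgeR adjusted p = 0.102) and passed without cTEC KO 2 (0.0427), with DESeq2 (0.0270) and in the fit of all 16 libraries (0.0289). The Flt3l effect in cTEC minus that in mTEChi was 0.45 (edgeR adjusted p = 0.135) and passed without cTEC KO 1 (0.0451) and with DESeq2 (0.0141). Between mTEChi and mTEClo the difference of KO effects passed for none of the 6 genes, where 2 genes passed (0.0101%), 1029 had an unadjusted p under 0.05 and DESeq2 called 16.

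Kitl moved together with Enpep, which encodes the Ly51 antigen used to sort cTEC. Enpep was at 193 and 214 CPM in WT cTEC and 114 and 110 CPM in KO cTEC, where its log2 fold change was -0.86 (SE 0.14, edgeR adjusted p = 0.0855). Over the 16 libraries the log2 CPM of Kitl correlated with that of Enpep at r = 0.984, a description over libraries that share their populations. The summed level of 8 cTEC markers, all detected, was 6524 to 7600 CPM in WT cTEC and 4114 to 5570 CPM in KO cTEC. These 8 include Psmb11, the gene that the KO mice lack, and Enpep itself. The summed level of 8 mTEC markers, all detected, was 3785 to 4179 CPM in WT cTEC and 4274 to 4654 CPM in KO cTEC. None of these 8 mTEC markers was called in cTEC, and their median log2 fold change was 1.17 against 0.01 over all genes. Among them, Aire had 12.6 CPM in WT and 77.7 CPM in KO cTEC (edgeR adjusted p = 0.0807), and Spib, a medullary transcription factor gene, 47.5 and 151 CPM (0.0760). The part of these markers in the Kitl difference was not tested.

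**Figure D5:**
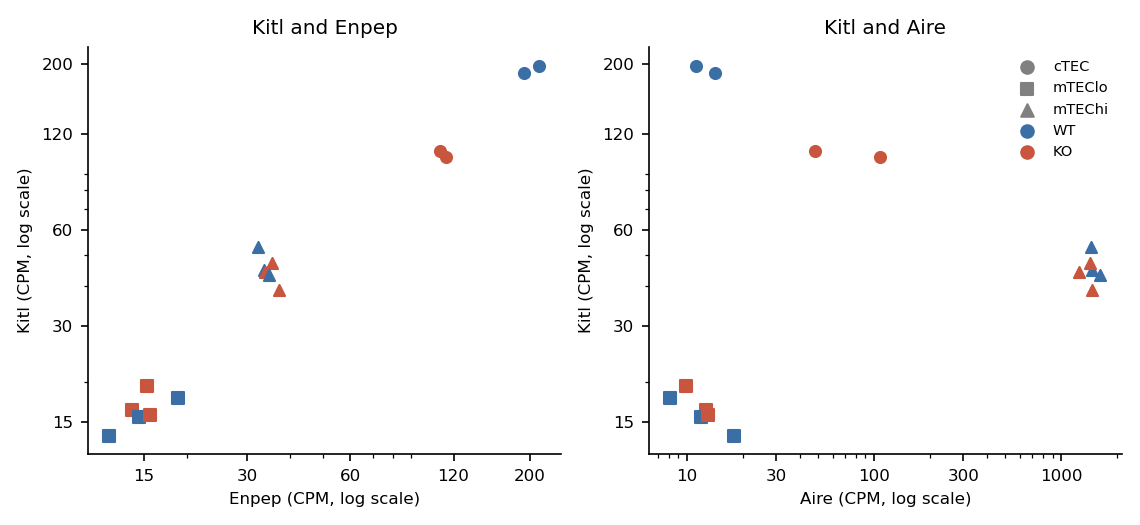
Kitl (vertical axis, CPM, log scale) against Enpep (left) and Aire (right; horizontal axes, CPM, log scale) in the 16 libraries; shapes are populations and colours genotypes. Libraries with more Enpep have more Kitl across populations, and the KO cTEC libraries lie below the WT ones in Enpep and above them in Aire.

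Markers of other cell types were also measured, although the gate for CD45-, EpCAM+ cells would remove leukocytes by CD45, and fibroblasts and endothelium by EpCAM. Ptprc, which encodes CD45, was at 31.3 ± 5.31 CPM in WT cTEC (SD, n = 2), 26.3 ± 1.35 in WT mTEClo and 18.0 ± 6.63 in WT mTEChi (n = 3 each), and these differences did not pass (edgeR adjusted p from 0.0715 to 0.438). The dendritic cell and B cell sums below were highest in mTEChi, while Ptprc was not called different between the WT populations. Whether these markers came from leukocytes was not tested. In cTEC the 9 dendritic cell and macrophage markers in the table summed to 39.1 to 74.6 CPM in WT, with Siglech at 0, and to 99.1 to 120 CPM in KO, with all 9 detected. In mTEChi they summed to 514 to 540 CPM over both genotypes, and in mTEClo to 46 to 73.4 CPM, so they moved with Il15, Flt3l and Tslp. The 5 B cell markers, all detected, summed to 2.13 to 4.79 CPM in WT cTEC, 11.9 to 13.7 CPM in KO cTEC and 30.5 to 32.5 CPM in mTEChi. The 10 thymocyte markers, all detected, summed to 101 to 137 CPM in WT cTEC and 122 to 206 CPM in KO cTEC. The 10 fibroblast and pericyte markers, all detected, summed to 1003 to 1430 CPM in cTEC and 525 to 625 CPM in mTEC. Dcn alone gave 858 CPM of that sum in WT cTEC and 45.3 CPM in WT mTEChi, while the 10 genes did not move one way. Against WT mTEClo, 6 were higher and 1 lower in WT cTEC, where 13.1% of all genes were called higher and 27.5% in either direction. Against WT mTEChi, 3 were higher and 5 lower, where 28% and 36.5% of all genes were. The 7 endothelial markers, all detected, summed to 20.5 to 101 CPM in cTEC and 80.9 to 153 CPM in mTEC. The 4 epithelial markers were detected in every group and summed to 3334 to 5505 CPM. The part of any of these cells in the cytokine levels was not tested.

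Receptor chains for these ligands were present in the epithelial libraries themselves. Of 8 receptor genes, 5 were higher and 2 lower in WT mTEChi than in WT mTEClo, where 42.8% of all genes were higher and 36.8% lower. Their median log2 fold change was 2.23 against 0.08 over all genes. Il2rg, the common gamma chain, was at 230 ± 6.59 CPM in WT mTEChi and 10.3 ± 1.76 in WT mTEClo (SD, n = 3; log2 4.46, SE 0.13, edgeR adjusted p = 1.87e-13). Il2rb, the beta chain shared by IL-2 and IL-15 receptors, was at 15.3 and 1.09 CPM, Il7r at 14 and 5.06 CPM, Csf1r at 28.6 and 3.47 CPM, and Flt3 at 12.4 and 0.388 CPM. Crlf2, the receptor chain of TSLP, was lower in mTEChi, at 6.78 against 17.8 CPM, and so was Il15ra, which presents interleukin 15, at 77.3 against 114 CPM. Csf1r and Flt3 are also among the dendritic cell and macrophage markers, which moved with them.

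Kit, the receptor of Kitl, was lowest in WT cTEC, where Kitl was highest. Between the WT medullary populations, Kitl was higher in mTEChi and Kit was not lower there. Kit was at 28.7 ± 7.24 CPM in WT cTEC (n = 2), against 114 ± 4.78 in WT mTEClo and 130 ± 4.29 in WT mTEChi (n = 3 each). Kit was lower in WT cTEC than in WT mTEClo (log2 -1.99, SE 0.19, edgeR adjusted p = 5.12e-05). In KO cTEC it was at 65.4 ± 12.2 CPM (log2 1.20 over WT, SE 0.26, edgeR adjusted p = 0.152), without overlap with WT. The KO effect on Kit in cTEC was above that in mTEClo by a log2 of 1.58 (SE 0.25, edgeR adjusted p = 0.00884) and above that in mTEChi by 1.30 (SE 0.22, 0.0136). Both SEs lie below the 0.26 of the cTEC effect alone, as these fits shared 1 spread with the less variable mTEC libraries. They may therefore understate the spread in cTEC. Mean Kit was lower in KO than in WT mTEClo (87.5 ± 13.5 against 114 ± 4.78 CPM) and mTEChi (120 ± 3.25 against 130 ± 4.29 CPM). These differences of KO effects therefore draw on mTEC as well as cTEC. No receptor gene was called for KO against WT in any population, and the median over the 8 in cTEC was a log2 of 1.10 against 0.01 over all genes.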

How the data were processed

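The authors deposited a table of raw read counts per gene symbol and RPKM values, which divide by gene length and library size, for 16 RNA-seq libraries. The submitters' processing notes name CASAVA 1.8.2, HTSeq 0.5.4p1 and the build mm10; the aligner and annotation are not given in the sources used here. Between 13.7% and 30.4% of each library's reads lay outside genes and were left out. The highest share was that of cTEC KO 1, against 19.9% in cTEC KO 2. Column letters C, L and H were read as cTEC, mTEClo and mTEChi. Counts were fitted with edgeR 4.0.16 (R 4.3.3; TMM scaling, filterByExpr, quasi-likelihood F test, Benjamini-Hochberg adjustment over all genes, threshold 0.05). KO against WT used the libraries of that population, and other comparisons the 4 groups of both populations. Comparisons of cTEC with mTEC thus applied 1 spread to populations that vary unequally. DESeq2 1.42.0 and limma 3.58.1 served as alternatives. The fits of KO against WT and of the WT population comparisons were also run on simulated data, with the outcome not given here. The KO population comparisons and the differences of KO effects were not simulated. CPM used TMM over all libraries. Intervals are 95% and neighbours in an order were called apart when their means differed by more than the sum of their SDs. Correlations used log2 CPM with a prior count of 2.

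The members and gene lists were chosen with earlier results of these data known. Named were all 6 members, up to 4 genes per list with the smallest p-values among those called between WT populations with at least 5 CPM, receptors with at least 5 CPM, the 3 genes most correlated with each member, and marker genes beside the results they touch. A gene that this rule took is not reported here.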

Additional observations from a re-analysis of the deposited data

Results flagged for a closer look

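In the main fits, which shared 1 spread between cTEC and mTEC, the KO effect on Kitl differed between populations by a test of the difference itself. The log2 fold change of KO over WT in cTEC minus that in mTEClo was -1.01 (SE 0.18, edgeR adjusted p = 0.0138), and minus that in mTEChi it was -0.77 (SE 0.16, edgeR adjusted p = 0.0308). Both KO cTEC libraries lay below both WT cTEC libraries in Kitl, while the genotypes overlapped in mTEClo and mTEChi. Adjusted p ranged from 2.50e-05 to 0.0506 over 6 other settings for the first difference, and from 6.83e-04 to 0.265 for the second. With 1 library left out, the first was called in 9 of 10 edgeR fits (adjusted p up to 0.0573). The second was called in 4 of 10 (up to 0.0882). KO against WT in cTEC did not itself pass for Kitl (edgeR adjusted p = 0.0807).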

How the results depend on the processing

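Of 1104 refits of the 6 genes over 12 comparisons, 1017 kept direction and call, 30 gained a call, 35 lost one and 22 changed sign; the cause was not tested. Genes called for KO against WT in cTEC numbered 0, but 383 with no low-count filter, 821 with DESeq2, 511 with voom, 718 with the replicate block, 4700 with all 16 libraries in 1 fit, and 167 to 3501 with 1 library left out (highest without cTEC KO 1). In an earlier simulation on these data, 1 spread shared by all 16 libraries called many genes in cTEC where no effect was simulated. Calls in that fit that involve cTEC are therefore weak evidence. In mTEClo 1 gene was called, against 21 with no filter, 318 with DESeq2, 6 with voom, 0 in the fit of all libraries and 1 to 2 with 1 library left out; in mTEChi 1, against 7 with DESeq2, 0 in the fit of all libraries and 1 to 2 with 1 left out. WT cTEC against mTEClo gave 4904 genes, and 3332 to 8113 with 1 library left out. KO cTEC against mTEClo gave 3501, against 743 with voom, 2109 with the replicate block, 5993 in the fit of all libraries and 2156 to 9716 with 1 left out, and against mTEChi 11910, 7188 with voom. The difference of KO effects between cTEC and mTEClo gave 834, against 2263 with DESeq2, 249 with voom, 390 with the replicate block, 2676 in the fit of all libraries and 309 to 6520 with 1 left out. Between cTEC and mTEChi it gave 1070, against 3052, 191, 348 and 2160 in the same order, and 492 to 6997. Between mTEChi and mTEClo it gave 2, against 16 with DESeq2, 0 with voom, 0 in the fit of all libraries and 0 to 4 with 1 left out. None of the sign changes was of a called value. Csf1, KO over WT in cTEC, became -0.011 with voom, -0.0050 with the replicate block and -0.00035 in the fit of all libraries. Its difference between cTEC and mTEChi became 0.013 with RLE scaling and with DESeq2, and that between mTEChi and mTEClo 0.0046 with voom. The other sign changes came with 1 library left out. Csf1 in cTEC then ranged from -0.20 to 0.19, and its differences from -0.28 to 0.13 (cTEC and mTEClo), -0.26 to 0.086 (cTEC and mTEChi) and -0.093 to 0.0089 (mTEChi and mTEClo). The difference in Il15 between cTEC and mTEClo ranged from -0.058 to 0.19 and that in Flt3l between mTEChi and mTEClo from -0.039 to 0.15. In mTEChi, Tslp ranged from -0.066 to 0.24 and Il7 from -0.0040 to 0.085. RLE scaling moved the median of all genes for WT cTEC against mTEChi from -0.24 to -0.42 (in KO from -0.24 to -0.37) and left the members' directions there. Deviations of libraries with the same replicate number correlated at -0.029 to 0.062, so the numbers were not taken as pairs. Tslp, with 47 and 90 reads in WT cTEC, is the gene that depth limits most.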

Other observations

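Beside the 6 genes, other ligands differed between the WT medullary populations, a comparison in which 79.6% of all genes were called, 42.8% higher and 36.8% lower in mTEChi. Of 20 further stromal haematopoietic cytokines, 14 were higher and 5 lower in mTEChi than in mTEClo, with a median log2 fold change of 1.78 against 0.08 over all genes. Il12a was at 54.8 CPM in mTEChi and 0.818 CPM in mTEClo, and Il5, the eosinophil growth factor, at 19.8 and 0.514 CPM. Thpo, which encodes thrombopoietin, was lower in mTEChi, at 0.961 against 7.73 CPM, and so was Ctf1, a cytokine of the IL-6 family, at 6.60 against 25.3 CPM. Il9, a further ligand that signals through the common gamma chain, had 2072 reads over the WT mTEChi libraries and none over the WT mTEClo ones. Against a floor of 3 reads over the group it was at least 626-fold higher in mTEChi. Among 10 ligands of related receptors, Pdgfb was higher in mTEChi (47.0 against 16.2 CPM), while Pdgfa (35.3 against 83.0 CPM) and Pdgfc (4.52 against 49.1 CPM) were lower.

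Of 12 JAK-STAT signalling and feedback genes, 4 were higher and 6 lower in WT mTEChi, a share close to the 79.6% of all genes called, with a median log2 fold change of -0.32. Socs3, a feedback inhibitor of cytokine signalling, was at 269 CPM in mTEChi and 1921 CPM in mTEClo. Jak3, the kinase of the common gamma chain, was lower in mTEChi (44.8 against 121 CPM) while Il2rg was higher, and Socs2 was also lower (38.6 against 76.1 CPM). Of 5 proteases that shed membrane proteins, 2 were higher and 3 lower in mTEChi, where 42.8% of all genes were higher and 36.8% lower. Adam9 and Adam17 were higher (193 against 84.5 CPM and 157 against 108 CPM). Mmp14 and Mmp9 were among those lower (181 against 411 CPM and 116 against 302 CPM). Of 10 thymic niche factors, 9 were tested, with 6 higher and 2 lower, where 42.8% of all genes were higher and 36.8% lower; their median log2 fold change was 0.86. Ccl25, a chemokine for thymic progenitors, was at 481 CPM in mTEChi and 30.8 CPM in mTEClo, Dll4, the Notch ligand for T lineage commitment, at 55.2 and 12 CPM, and Igf1 at 193 and 24.8 CPM. Cxcl12, another such chemokine, went the other way, at 22.8 and 189 CPM.

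The genes most like each cytokine over the 16 libraries, by the correlation of log2 CPM among 13511 genes, follow the populations and share their libraries. They were Spin1, Lpcat2 and Casp12 for Il7 (r = 0.997 for each), Nqo1, Dcbld2 and Enpep for Kitl (0.988, 0.987 and 0.984), and Auts2, Rassf5 and Tenc1 for Csf1 (0.996, 0.996 and 0.995). For Il15 they were Rrm2, Dnahc17 and Prnp (0.994, 0.992 and 0.992), for Flt3l Dusp15, Gga3 and Zfp641 (0.989, 0.986 and 0.985), and for Tslp Donson, Cyp2j13 and Olfm3 (0.986, 0.978 and 0.977). Nqo1, a target of the oxidative stress factor NRF2, was at 104 CPM in WT cTEC, 68.3 in KO cTEC, 18.1 in WT mTEClo and 41.8 in WT mTEChi. Among the members themselves, Il7 and Csf1 correlated at r = 0.926, Il15 and Flt3l at 0.963, and Il7 and Il15 at -0.958, while Kitl reached at most 0.410 with another member, Flt3l.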
